A study of Mus musculus with 8 samples.

Results

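Synucleins and genes of familial Parkinson disease (PD) were examined in midbrain dopaminergic (mDA) neurons of newborn mice with and without the transcription factor Pitx3. The set held 8 genes, Sncb, Sncg, Lrrk2, Pink1, Park7, Uchl1, Vps35 and Atp13a2, each found by its own symbol among the probesets that carry 1 symbol. They were measured by 9 probesets, 2 of them for Lrrk2, out of 35512 probesets and 19938 such genes on the array. Of the 8 genes, 7 reached the signal minimum used for testing, a group mean of 60 on the linear scale, and Lrrk2 did not.

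Cells were sorted as EGFP-positive and propidium iodide-negative from the substantia nigra pars compacta (SNc) or the ventral tegmental area (VTA), the adjoining midbrain regions that hold most mDA neurons. All pups were C57Bl/6 (C57Bl/6J by the study's methods), aged P1 to P4, and carried 1 copy of TH-EGFP, in which the tyrosine hydroxylase promoter drives the green protein. The groups were SNc WT and VTA WT (Pitx3+/+; Th-EGFP+/-) and SNc KO and VTA KO (Pitx3-/-; Th-EGFP+/-), each with 2 arrays of pooled batches of sorted cells. The sources used here do not say that both arrays of a group came from different animals. P-values therefore reflect only the spread among the arrays, and that spread may be technical. By the study's account, the ventral Pitx3-positive neurons of the SNc are lost before birth in the knockout, so that SNc KO holds the dorsal neurons that remain. In such bulk samples, fewer cells of a type and less RNA per cell cannot be told apart.

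Synucleins are small proteins of the presynaptic terminal that bind membranes of synaptic vesicles, and one of them is the main component of Lewy bodies in PD. The other genes of the set act at mitochondria (Pink1, Park7), in the ubiquitin system (Uchl1), in endosomal sorting (Vps35), in lysosomes (Atp13a2) and in membrane traffic under a kinase (Lrrk2). Changes in several of them cause inherited PD, in which the ventral SNc neurons are the most vulnerable mDA neurons.

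The arrays were alike in overall signal, with medians of 6.11 to 6.24 on the log2 scale and 55.0% to 58.9% of probesets above a signal of 60. The arrays of a group correlated at r = 0.971 to 0.974 across probesets in 3 groups and at 0.932 in VTA KO, where the SD between arrays was 0.376 against 0.241 to 0.252 in the other groups. Th read 10.01 to 10.34 on all 8 arrays, and all 11 dopaminergic and all 12 general neuronal markers were above the signal minimum in every group. Pitx3 read 7.72 and 7.63 in SNc WT, 7.87 and 7.94 in SNc KO, 8.10 and 7.84 in VTA WT, and 8.08 and 7.92 in VTA KO. Both SNc KO arrays thus read above both SNc WT arrays, although the study describes the remaining dorsal neurons as Pitx3-negative. The probed and the deleted stretches are not stated, and the reason for this signal was not tested. The level of Pitx3 therefore does not check the labels. Of the 11 dopaminergic markers, 3 were lower in KO over both regions by limma and 0 higher, namely Aldh1a1 (-2.23, adjusted p = 0.00606), Slc6a3 (-0.94, adjusted p = 0.0301) and Drd2 (-0.71, adjusted p = 0.0301). Over the tested probesets, 97 of 22112 differed between SNc WT and VTA WT by limma at an adjusted p under 0.05, 33 between SNc KO and SNc WT, 2 between VTA KO and VTA WT, and 33 between SNc KO and VTA KO.

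None of the 7 tested genes passed an adjusted p under 0.05 in limma in these 4 comparisons. The background was 0.439% of all tested probesets between SNc WT and VTA WT, 0.149% between SNc KO and SNc WT, 0.00904% between VTA KO and VTA WT and 0.149% between SNc KO and VTA KO. The same was true of the SNc knockout effect minus the VTA knockout effect (background 0%), of SNc against VTA over both genotypes (1.56%) and of KO against WT over both regions (0.276%). At the thresholds named by the study, an unadjusted p of at most 0.05 with a fold of at least 1.5, 0 of 7 genes passed in each of the 7 comparisons. Of all probesets, 6.62%, 3.6%, 4.35%, 6.96%, 6.74%, 4.77% and 2.04% did, in that order. At an unadjusted p under 0.05 alone, limma gave Pink1 between VTA KO and VTA WT (10.2% of all probesets) and Sncb between SNc KO and VTA KO (17.5%) and between SNc and VTA over both genotypes (26.8%). It gave 0 of 7 between SNc WT and VTA WT (18.8% of all), between SNc KO and SNc WT (8.62%), for the difference between the knockout effects (9.89%) and for KO against WT over both regions (8.96%).

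**Figure D1:**
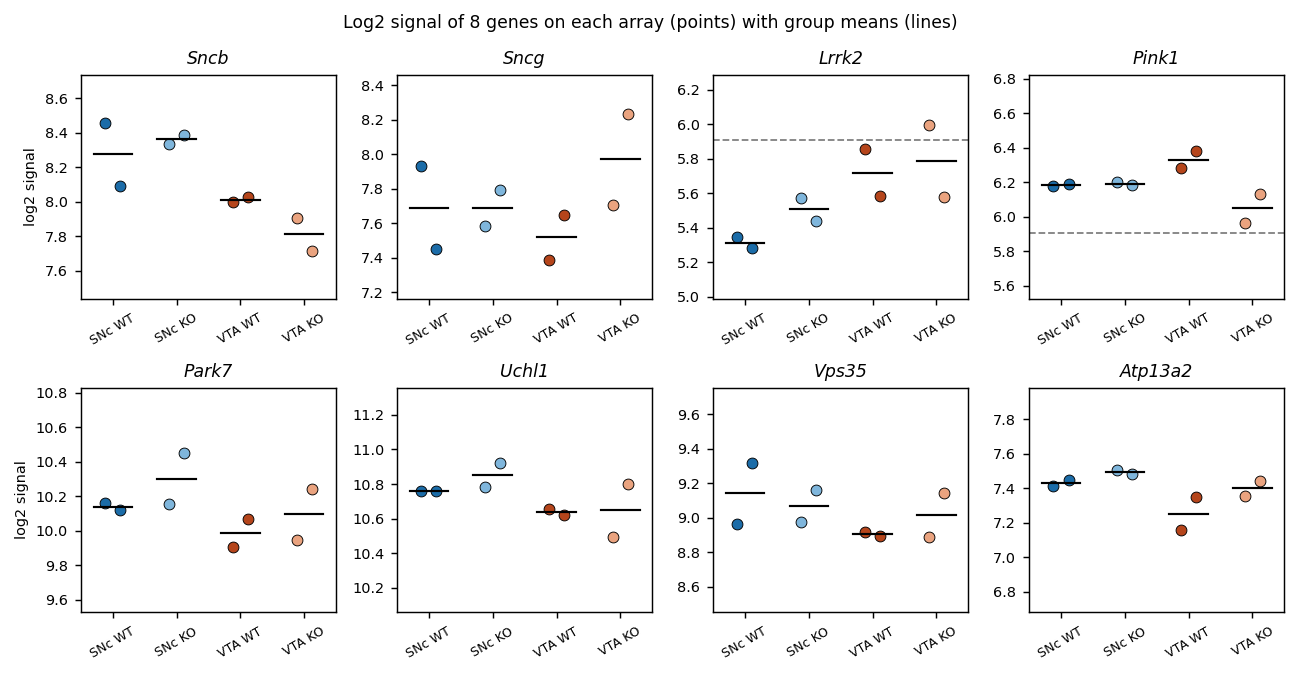
Log2 signal (y axis, a window of equal height in every panel) of the 8 genes on each of the 8 arrays (points), with the mean of the 2 arrays of each group as a line and the signal minimum of 60 as a dashed line where it lies in the window. Sncb sat higher on all 4 SNc arrays than on all 4 VTA arrays, and Lrrk2 crossed the signal minimum on 1 array.

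The intervals show how precisely these arrays measured each difference. They rest on the spread among arrays, which may be technical, so they do not bound a difference between animals. Between SNc KO and SNc WT, the 95% interval from limma lay inside a 1.5-fold difference in either direction for 7 of 7 genes, beside 55.2% of all probesets. The same held for 6 of 7 between VTA KO and VTA WT (53% of all), for 5 of 7 between SNc KO and VTA KO (45.1%) and for 4 of 7 between SNc WT and VTA WT (44.5%). It held for 6 of 7 between SNc and VTA over both genotypes, Sncb being the other gene (65.9%), and for 6 of 7 between KO and WT over both regions, Sncg being the other gene (76.1%). For the difference between the knockout effects, the interval was that narrow for 2 of 7, Uchl1 and Atp13a2 (23.7% of all). SDs within groups ran from 0.0699 for Pink1 to 0.279 for Sncg, around a median of 0.164 over all tested probesets.

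**Figure D2:**
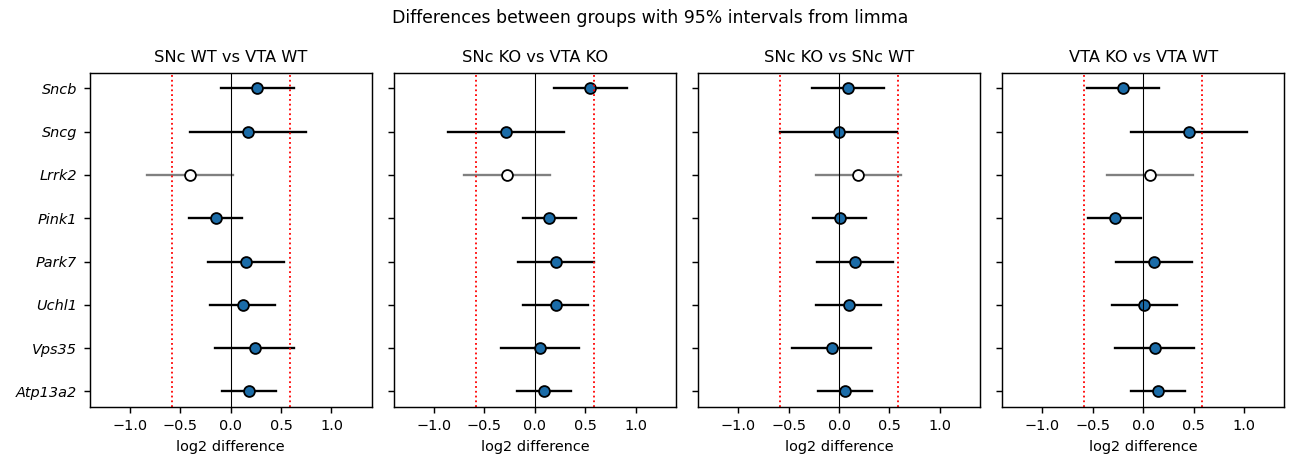
Log2 difference (x axis) of each gene in 4 comparisons with its 95% interval from limma, where dotted lines mark a 1.5-fold difference and open circles mark Lrrk2, fitted without the signal filter. All 7 intervals of the tested genes between SNc KO and SNc WT lie within the dotted lines, and the interval of Sncb between SNc KO and VTA KO, 0.19 to 0.91, lies above 0.

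Sncb encodes beta-synuclein, a neuronal relative of the PD synuclein that lacks part of its aggregating core. It read 8.46 and 8.09 in SNc WT and 8.34 and 8.39 in SNc KO. It read 8.00 and 8.02 in VTA WT and 7.90 and 7.71 in VTA KO. The lowest SNc array thus stood above the highest VTA array, and the order of the group means was VTA KO, VTA WT, SNc WT, SNc KO. Sncb was the only 1 of the 7 tested genes whose 4 SNc arrays all stood above the 4 VTA arrays, as 8.63% of all tested probesets did, and 0 of 7 stood below (8.17%).

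Over both genotypes the Sncb difference between SNc and VTA was 0.41 on the log2 scale (SE 0.106, 95% interval 0.15 to 0.66), a fold of 1.33. Its adjusted p in limma was 0.0940, and a two-sided exact permutation test of 4 arrays against 4 gave p = 0.0286, the smallest that design allows. Every probeset with full separation gets this p, 8.63% of those tested with SNc higher and 8.17% with SNc lower. It therefore only restates the separation and is not taken as support. The difference was 0.26 (SE 0.150, 95% interval -0.10 to 0.62, limma adjusted p = 0.387) between the WT groups and 0.55 (SE 0.150, 95% interval 0.19 to 0.91, adjusted p = 0.185) between the KO groups. Neither passed adjustment, and the test of the difference between them gave 0.29 (SE 0.212, limma adjusted p = 0.688). Within SNc, KO minus WT was 0.09 (95% interval -0.27 to 0.45, adjusted p = 0.939), less than the spread of the SNc WT arrays (SD 0.261). Within VTA it was -0.20 (95% interval -0.56 to 0.16, adjusted p = 0.700), although the VTA KO arrays lay below both VTA WT arrays.

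Scaling set the size of the Sncb difference between the regions. It was 0.50 with the arrays centred on their medians (limma adjusted p = 0.0515) and 0.30 after quantile normalization (adjusted p = 0.191). Leaving out 1 array at a time moved it between 0.31 (without SNc WT replicate 1) and 0.50 (without SNc WT replicate 2). The difference between the WT groups moved further, to 0.078 and 0.45 on leaving out the same arrays.

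Markers of other cells also differed between the arrays. Of 12 genes of ependymal and ciliated cells, 5 were lower in SNc than in VTA over both genotypes by limma at an adjusted p under 0.05 and 0 higher, with a median difference of -0.89. Their summed linear signal was 1146 to 1220 in SNc WT, 1280 to 1297 in SNc KO, 3968 to 4573 in VTA WT and 1993 to 3100 in VTA KO, and 0 of the 12 stayed under the minimum on every array. Astrocyte and radial glia markers summed to 3515 to 3734 in SNc WT, 3670 to 3805 in SNc KO, 4837 to 5251 in VTA WT and 3029 to 3934 in VTA KO, with 1 of 9 tested lower and 0 higher over both genotypes. This sum did not follow the regions, since 1 VTA KO array lay below all SNc arrays. Of these 11 markers, 7 were above the minimum for each SNc group, against 9 for VTA WT and 8 for VTA KO. Only 2, Gfap and Aldh1l1, defining genes of astrocytes, were under it on every array.

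The 12 general neuronal markers summed to 20953 to 21205 in SNc WT, 19867 to 20086 in SNc KO, 18409 to 18902 in VTA WT and 19527 to 19984 in VTA KO. The median difference of these genes was 0.20 between the WT groups and 0.09 between the KO groups, with 0 of 12 called in either. VTA KO overlapped SNc KO in this sum. Among genes listed as markers of other neurons, the GABAergic Gad1 was higher in SNc over both genotypes (0.996, limma adjusted p = 0.0450), as 1 of 4 tested GABAergic genes. Neurod6, of the glutamatergic list, was lower (-1.85, adjusted p = 0.0183), as 1 of 3. Its mean was 8.32 in VTA WT and 5.92 in VTA KO, whereas Slc17a6 of that list read 9.79 and 10.03. Which cells gave the Neurod6 signal was not tested. The part of other cells in the Sncb difference was not tested.

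**Figure D3:**
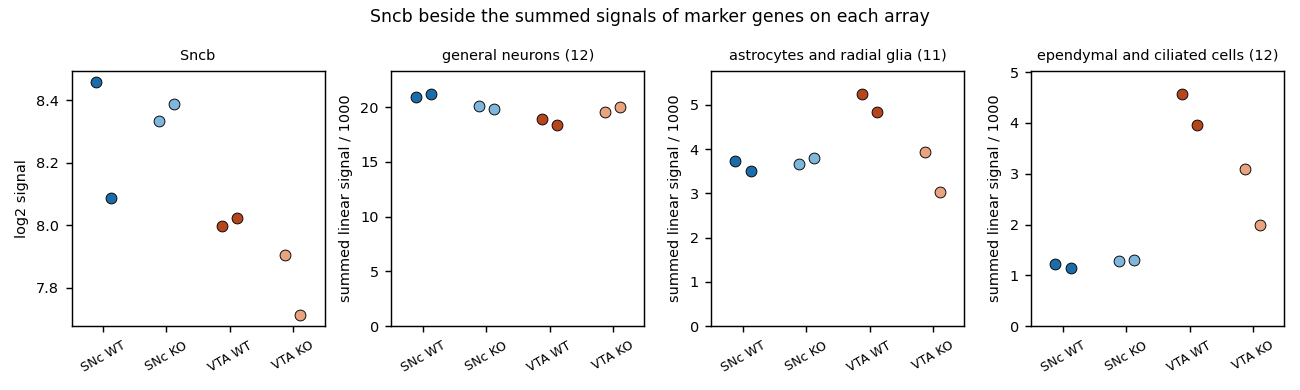
Log2 signal of Sncb (first panel) and the summed linear signal, scaled as the axis states, of 12 general neuronal, 11 astrocyte and radial glia and 12 ependymal and ciliated markers (other panels, from 0) on each of the 8 arrays, shown as points by group. The ependymal and ciliated sum runs from 1146 to 1297 on the 4 SNc arrays and from 1993 to 4573 on the 4 VTA arrays. It is thus higher in VTA, where Sncb is lower. Within regions the group means of both run the same way, with KO above WT in SNc and below WT in VTA.

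Sncg encodes gamma-synuclein, which is abundant in peripheral and some central neurons. Its arrays read 7.93 and 7.45 in SNc WT, 7.58 and 7.79 in SNc KO, 7.39 and 7.65 in VTA WT, and 7.71 and 8.23 in VTA KO. VTA KO was the highest group and lay above both VTA WT arrays, but its lower array fell inside the range of the SNc arrays. The knockout difference in VTA was 0.45 (SE 0.240, 95% interval -0.13 to 1.03, limma adjusted p = 0.587) and that in SNc was -0.0037 (95% interval -0.58 to 0.57, adjusted p = 0.999). The difference between these effects was -0.45 (SE 0.339, limma adjusted p = 0.693). Without VTA KO replicate 1 the VTA difference was 0.71 (limma adjusted p = 0.275) and met the thresholds named by the study, and without VTA KO replicate 2 it was 0.19. The 2 synucleins thus gave different orders of the groups, with VTA KO lowest for Sncb and highest for Sncg.

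The 250 bases before the start of both synuclein genes are shown because Pitx3 is absent in the KO groups and binds a bicoid-type site, whose letters TAATCC were searched there on both strands. They come from RefSeq on build GRCm38.p6, at chr13:54766596-54766845 (minus strand) for Sncb and chr14:34374670-34374919 (minus strand) for Sncg. Neither held TAATCC, which 6.25% of 32851 promoters of that length did, nor the related TAAGCC (8.2%). Capitals mark a GC box (GGGCGG, or CCGCCC on the other strand), found in 32.7% of all promoters.
Sncb: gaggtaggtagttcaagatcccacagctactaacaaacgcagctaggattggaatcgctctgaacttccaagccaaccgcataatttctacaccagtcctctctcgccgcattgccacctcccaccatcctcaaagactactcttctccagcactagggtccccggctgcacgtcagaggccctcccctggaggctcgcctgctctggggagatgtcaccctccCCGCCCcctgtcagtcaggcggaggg
Sncg: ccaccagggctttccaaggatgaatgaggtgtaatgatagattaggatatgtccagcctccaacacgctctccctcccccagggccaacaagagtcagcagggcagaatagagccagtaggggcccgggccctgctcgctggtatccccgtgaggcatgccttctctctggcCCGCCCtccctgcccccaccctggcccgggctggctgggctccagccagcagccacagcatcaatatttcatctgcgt
A promoter was at hand for 7 of the 8 genes, Vps35 being the other one. A GC box stood in 6 of the 7 and was not found in Uchl1. The site AAAGGTCA of Nr4a factors (1.34% of all promoters) was in 0 of 7. The share of G and C ran from 48.8% in Uchl1 to 67.6% in Lrrk2, around a median of 52.4% over all promoters.

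Lrrk2 encodes a large kinase that phosphorylates Rab GTPases and whose activating changes are a frequent cause of inherited PD. Its brighter probeset read 5.35 and 5.28 in SNc WT, 5.57 and 5.44 in SNc KO, 5.86 and 5.58 in VTA WT, and 6.00 and 5.58 in VTA KO. Only 1 of 8 arrays, in VTA KO, was above the signal minimum of 5.91, so these are dim signals. The 4 SNc arrays all read below the 4 VTA arrays, by as little as 5.57 against 5.58. Of the tested probesets, to which Lrrk2 does not belong, 8.17% separated with SNc lower. Fitted without the signal filter, the Lrrk2 difference between SNc and VTA was -0.34 (SE 0.124, 95% interval -0.64 to -0.04, limma adjusted p = 0.206). The median difference of all probesets in that fit was also below 0, at -0.037. For Lrrk2 the two-sided exact permutation test gave the same p of 0.0286, which again only restates the separation.

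Without VTA KO replicate 2, Lrrk2 passed the signal minimum only because the remaining VTA KO array, at 63.8 on the linear scale, then stood alone for its group, while the other arrays ran from 38.9 to 57.9. The difference between the regions was then -0.45, and its test is not taken as support, since the filter admitted the gene through the array where it was highest. The second Lrrk2 probeset read 5.0 and 5.4 in SNc WT, 4.7 and 4.4 in SNc KO, 5.5 and 5.2 in VTA WT, and 5.1 and 4.9 in VTA KO, under the minimum on every array. The SNc and VTA arrays of the second probeset overlapped, and the probesets disagreed on the order of the groups. The brighter one put SNc WT lowest, and the second put SNc KO lowest, with a knockout difference in SNc of -0.59 (limma adjusted p = 0.615 without the signal filter) against 0.19 (adjusted p = 0.913) for the brighter one.

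Pink1 encodes the kinase that accumulates on damaged mitochondria and starts their removal. It read 6.18 and 6.19 in SNc WT, 6.20 and 6.18 in SNc KO, 6.28 and 6.38 in VTA WT, and 5.96 and 6.13 in VTA KO. The 4 SNc arrays were nearly equal, below both VTA WT arrays and above both VTA KO arrays. Between VTA KO and VTA WT the difference was -0.28 (SE 0.109, 95% interval -0.54 to -0.02, limma adjusted p = 0.452). In SNc it was 0.01 (95% interval -0.25 to 0.27, adjusted p = 0.993), and the difference between the effects was 0.29 (SE 0.153, adjusted p = 0.584). On the linear scale Pink1 ran from 62.5 to 83.4, just above the minimum.

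Park7 encodes DJ-1, a small protein that protects cells against oxidative damage. It read 10.16 and 10.12 in SNc WT, 10.15 and 10.45 in SNc KO, 9.91 and 10.07 in VTA WT, and 9.95 and 10.24 in VTA KO. SNc WT lay above VTA WT, and the KO groups, with SDs of 0.209 and 0.208, overlapped each other. SNc minus VTA was 0.18 over both genotypes (SE 0.111, 95% interval -0.09 to 0.45, limma adjusted p = 0.330). The knockout differences were 0.16 in SNc (adjusted p = 0.867) and 0.11 in VTA (adjusted p = 0.851). The promoter of Park7 was the only 1 of the 7 that held TAATCC, in the other orientation (GGATTA), with its first base 223 bases before the start at chr4:150909922-150910171 (minus strand, RefSeq, GRCm38.p6). It is shown with this motif and a GC box, which do not overlap, in capitals.
Park7: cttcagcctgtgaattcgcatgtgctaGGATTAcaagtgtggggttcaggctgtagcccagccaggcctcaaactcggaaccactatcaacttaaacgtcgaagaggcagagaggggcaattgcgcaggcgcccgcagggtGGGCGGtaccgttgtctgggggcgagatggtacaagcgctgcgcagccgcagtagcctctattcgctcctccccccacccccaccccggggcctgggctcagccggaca
The match describes letters in this window and is no evidence of a bound site.

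Uchl1 encodes a ubiquitin C-terminal hydrolase that is very abundant in neurons. It read 10.76 and 10.76 in SNc WT, 10.78 and 10.92 in SNc KO, 10.65 and 10.62 in VTA WT, and 10.49 and 10.80 in VTA KO. All SNc arrays lay above both VTA WT arrays, while 1 VTA KO array fell below VTA WT and the other reached into the range of SNc KO. SNc minus VTA was 0.16 (SE 0.0946, 95% interval -0.06 to 0.39, limma adjusted p = 0.304), and the knockout difference was 0.10 in SNc (adjusted p = 0.925) and 0.01 in VTA (adjusted p = 0.987).

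Vps35 encodes the core subunit of the retromer, which returns cargo from endosomes to the Golgi and the cell surface. Its arrays read 8.97 and 9.32 in SNc WT, 8.98 and 9.16 in SNc KO, 8.92 and 8.89 in VTA WT, and 8.89 and 9.14 in VTA KO. SNc WT, SNc KO and VTA KO overlapped one another, and both VTA WT arrays lay below the SNc arrays. SNc WT minus VTA WT was 0.24 (SE 0.161, 95% interval -0.15 to 0.62, limma adjusted p = 0.466), or 0.062 without SNc WT replicate 2 and 0.41 without SNc WT replicate 1, and the knockout difference was -0.07 in SNc (adjusted p = 0.955) and 0.11 in VTA (adjusted p = 0.850).

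Atp13a2 encodes a lysosomal P5-type ATPase that transports polyamines. It read 7.42 and 7.45 in SNc WT, 7.51 and 7.48 in SNc KO, 7.16 and 7.35 in VTA WT, and 7.36 and 7.44 in VTA KO. The KO arrays were above the WT arrays within each region, and only the higher VTA KO array reached the range of the SNc arrays. SNc minus VTA was 0.14 (SE 0.0785, 95% interval -0.05 to 0.33, limma adjusted p = 0.304), with p = 0.0571 in a two-sided exact permutation test of 4 arrays against 4. That permutation test gave p = 0.114 for Uchl1, 0.171 for Park7 and for Vps35 and 0.829 for Sncg, and its highest value for Pink1. No share over all probesets was computed for such values, and they are not taken as support. The knockout difference was 0.06 in SNc (adjusted p = 0.940) and 0.15 in VTA (adjusted p = 0.705).

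Counts of groups that did not overlap were read against all probesets, since 2 arrays against 2 separate often. Between SNc WT and VTA WT, 5 of 7 genes were higher on both SNc arrays (29.6% of all probesets) and 1, Pink1, was lower (28.7%). Between SNc KO and SNc WT, Uchl1 and Atp13a2 were higher without overlap, 2 of 7 (24% of all), and 0 lower (20%). Between VTA KO and VTA WT, Sncg and Atp13a2 were higher, 2 of 7 (17.5% of all), and Sncb and Pink1 were lower, 2 of 7 (20.7%). Between SNc KO and VTA KO, Sncb, Pink1 and Atp13a2 were higher, 3 of 7 (26.8%), and 0 lower (21.8%). Over both regions, 0 of 7 genes separated the 4 KO from the 4 WT arrays (1.96% of all higher and 1.31% lower). These comparisons share arrays, and their values are therefore given side by side only.

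Other genes of the same pathways were taken from 10 lists with 203 tested genes. None of the 203 passed an adjusted p under 0.05 in limma in the 4 comparisons between pairs of groups with all arrays. An unadjusted p under 0.05 was found for 28 of 203 between SNc WT and VTA WT (13.8% beside 18.8% of all probesets), 10 between SNc KO and SNc WT (4.93% beside 8.62%), 11 between VTA KO and VTA WT (5.42% beside 10.2%) and 26 between SNc KO and VTA KO (12.8% beside 17.5%). Without VTA KO replicate 2, 10 of 203 were called higher in SNc KO than in VTA KO (4.93% beside 6.17% of all probesets). Without 1 or the other array of VTA KO, 2 were called between SNc WT and VTA WT (0.985% beside 1.96% without replicate 1 and 1.9% without replicate 2), and leaving out any other array gave 0 in these 4 comparisons. At the thresholds named by the study, SNc WT against VTA WT gave 5 higher genes and 0 lower ones (2.46% against 6.62% of all probesets). They were Cplx2 (0.73), complexin 2 of the vesicle fusion machinery, Snx6 (0.64), a sorting nexin that works with the retromer, Plk2 (0.64), a kinase that phosphorylates synucleins, Bag5 (0.63), a co-chaperone, and Gch1 (0.59), the first enzyme in the synthesis of the cofactor of tyrosine hydroxylase. Their adjusted p ran from 0.106 for Cplx2 to 0.196 for Gch1.

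List medians between SNc and VTA over both genotypes were 0.25 for 5 ubiquitin hydrolase and ubiquitin genes, 0.18 for 22 retromer and WASH genes, 0.16 for 31 proteasome subunits and 0.16 for 20 synuclein partners. They were 0.14 for 24 Rab substrates and partners of Lrrk2, 0.12 for 35 mitophagy genes, 0.11 for 30 lysosomal genes, 0.10 for 17 antioxidant genes, and 0.06 for both 24 other familial PD genes and 3 P5-type ATPases. The median of all tested probesets was 0.02, and that of the brighter probesets passing a filter at 100 was 0.09. The 12 general neuronal markers had a median of 0.13, within the range of the list medians. After quantile normalization the list medians lay between -0.05 and 0.14, and the one below 0 was that of the P5-type ATPases. At the thresholds named by the study, Rab12 (0.77, limma adjusted p = 0.115) and Rab35 (0.62, adjusted p = 0.157), both Rab GTPases and substrates of Lrrk2, met them on the higher side in SNc and 0 genes on the lower side, 0.985% of the list genes beside 4.77% of all probesets. Both rest on groups with discordant arrays, with an SD of 0.763 for Rab12 in VTA KO and of 0.711 for Rab35 in SNc KO. Leaving out 1 array gave 0.50 to 1.04 for Rab12 (VTA KO replicates 1 and 2) and 0.36 to 0.87 for Rab35 (SNc KO replicates 2 and 1). Without VTA KO replicate 2, 21 of 203 genes were called higher and 0 lower, 10.3% beside 14.3% of all tested probesets, and after median subtraction 6 of 202 were higher (2.97% beside 3.68%).

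**Figure D4:**
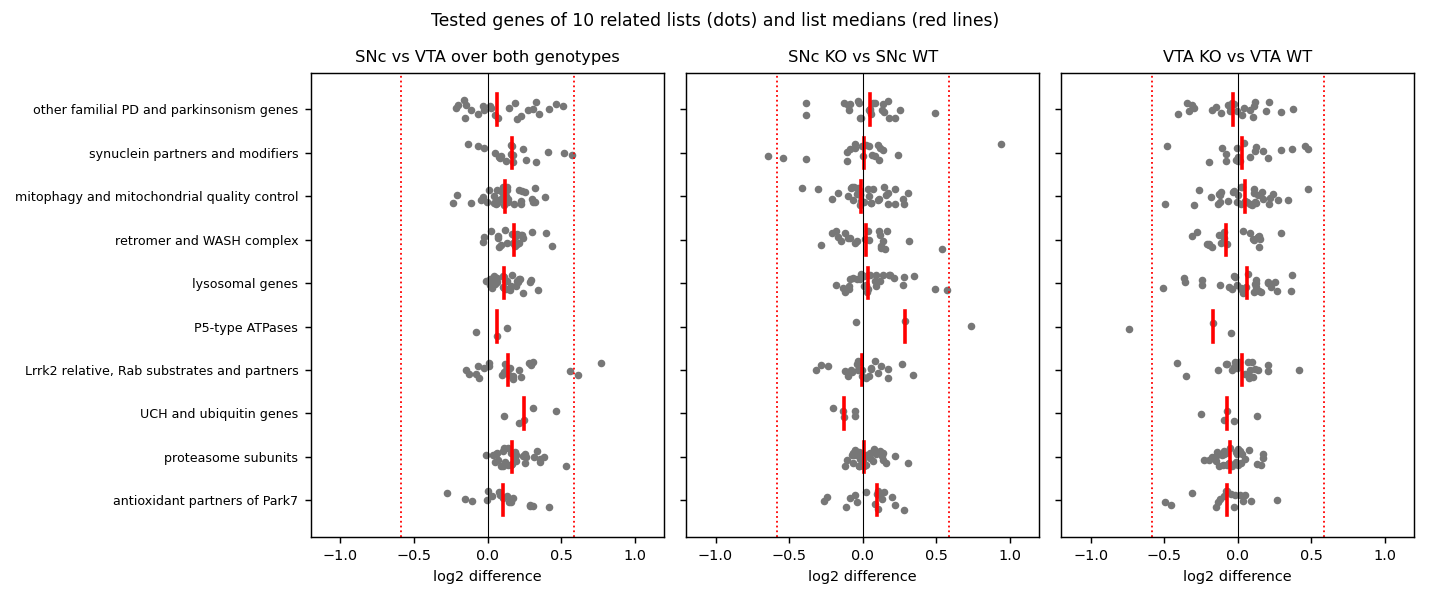
Log2 difference (x axis) of each tested gene (dots, spread vertically for legibility) of 10 related lists in 3 comparisons, with each list's median as a red line and dotted lines at a 1.5-fold difference. Between SNc and VTA the list medians run from 0.06 to 0.25, and between SNc KO and SNc WT the highest dot, 0.94, is Syn2.

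Knockout against wild type gave 1 call in the lists, over both regions, 0.493% of the 203 list genes beside 0.276% of all tested probesets. Syn2, synapsin 2 of the synaptic vesicle surface and a member of the list of synuclein partners, rose by 0.71 in KO over both regions (SE 0.0757, limma adjusted p = 0.0318). Its mean was 7.34 ± 0.041 (SD, n = 2 arrays) in SNc WT and 8.28 ± 0.059 in SNc KO. It was 7.48 ± 0.045 in VTA WT and 7.96 ± 0.10 in VTA KO, so that no KO array overlapped a WT array. Of all tested probesets, 1.96% separated in this way with KO higher. In SNc the difference was 0.94 (SE 0.107, adjusted p = 0.0537). The call was lost on leaving out any 1 of the 8 arrays, where the difference was 0.67 to 0.74 and the limma adjusted p 0.0504 to 0.202, and with the replicate number as a block (adjusted p = 0.0819). The GABAergic marker Slc32a1 rose in the same comparison (0.84, limma adjusted p = 0.0301), as 1 of 4 tested GABAergic genes, with Gata3 under the minimum on every array. The summed signal of 5 GABAergic genes was 865 to 934 in SNc WT, 1280 to 1393 in SNc KO, 871 to 875 in VTA WT and 1161 to 1362 in VTA KO, and 3 dopaminergic genes were lower, as given above. The sum of 11 dopaminergic genes was 11190 to 11607 in SNc WT against 6453 to 7203 in SNc KO, and 9722 to 10209 in VTA WT against 6953 to 6969 in VTA KO. The sum of 6 glutamatergic genes was 633 to 742 in SNc WT against 1239 to 1248 in SNc KO, and 1307 to 1504 in VTA WT against 1228 to 1360 in VTA KO. Markers of cells other than neurons moved too. The astrocyte marker Slc1a2 was lower in KO over both regions (-0.75, limma adjusted p = 0.0494), as 1 of 9 tested markers of that list. The sum of 10 pericyte and smooth muscle genes was 756 to 827 in SNc WT against 1966 to 2174 in SNc KO. In that comparison 0 of 9 tested pericyte genes were called and 3 met the study's thresholds, all higher in KO. The part of all these cell types in the Syn2 difference was not tested.

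Cplx2, of the same list, read -0.65 between SNc KO and SNc WT (limma adjusted p = 0.297), which met the thresholds named by the study. Between SNc KO and VTA KO those thresholds were met by Rab12 (0.96), Prkra (0.73), an activator of a stress kinase, Gusb (0.68), a lysosomal glucuronidase, and Ptrhd1 (0.62), with adjusted p of 0.130 to 0.243 and a share of 1.97% beside 6.96% of all probesets. Without VTA KO replicate 1 the difference was 0.42 for Rab12 and 0.31 for Ptrhd1, and without replicate 2 it was 1.499 and 0.938. Atp13a5, a relative of Atp13a2 named here after its values were seen, read 0.73 in SNc and -0.74 in VTA for KO minus WT, with adjusted p of 0.739 and 0.617. Without VTA KO replicate 1 its VTA difference was -1.398, and without replicate 2 it was -0.076. Its SNc difference was 0.44 without SNc WT replicate 1.

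The difference between the SNc and VTA knockout effects was also fitted for the lists. None of the 203 genes passed an adjusted p under 0.05 in limma, and 12 had an unadjusted p under 0.05 (5.91% beside 9.89% of all probesets). Those that met the study's thresholds were Snx1 (0.82), Gusb (0.79), Gpx4 (0.72), Hexa (0.71), Prkra (0.63) and Slc30a10 (0.59) on the positive side and Cplx2 (-0.65) on the negative side, 3.45% of the list genes beside 6.74% of all probesets. Of these, Gpx4 was 0.44 without VTA KO replicate 1 and Prkra was 0.38 without SNc WT replicate 1.

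For the 3 genes with the widest range of group means, the genes of most similar pattern were found by Pearson's r over the 8 arrays, as the highest among all tested genes and with no test. For Sncb these were Phf24 (0.964), Crot (0.955) and Gpatch11 (0.954), which also had their lowest group mean in VTA KO. For Lrrk2 they were 2610028H24Rik (0.972), Col4a3 (0.967) and Wnt5b (0.965), and for Sncg they were Slc5a2 (0.942), Gm4988 (0.931) and Zfp786 (0.924). The 8 points are arrays of 4 groups that share the normalization.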

How the data were processed

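Cells were sorted from SNc and VTA of WT and Pitx3-/- pups, and their amplified RNA was hybridized to Affymetrix Mouse Gene 1.0 ST arrays, 2 arrays for each of 4 groups. The values are log2 expression values deposited by the authors, who summarised the probes with RMA Express and name the LPE algorithm of FlexArray in their methods. Software versions and the build of the genome were not given in the sources used here. RMA pulls low signals together, so differences of dim genes such as Lrrk2 and Pink1 may be understated, and the number of arrays limits the precision.

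Symbols came from the platform annotation, where 21789 probesets carry 1 symbol, 1621 several and 12102 none. Through the gene ID, 19856 were found in a RefSeq gene table of GRCm38.p6, and 0 symbols changed. A gene's value is that of its probeset of highest mean.

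A single model over all 8 arrays gave each group its own mean (limma 3.58.1, R 4.3.3, with 4 residual and 2.4 prior degrees of freedom). It was fitted to 22112 probesets, those whose linear group mean reached 60 in any group. P-values were adjusted by Benjamini-Hochberg over all of them within a comparison. The study's LPE test was not run. The fit was tested on simulated data. Exact permutation tests were two-sided, and 2 arrays against 2 cannot go below p = 0.333. Replicate numbers come from the sample titles, which state no shared animal or day.

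The 8 genes, the lists and the marker genes were chosen with earlier results of these data known. Named genes were all 8 genes, list genes past an adjusted p under 0.05 or else the up to 3 largest at the study's thresholds, the 3 most similar genes of 3 members, Pitx3 and Th. Alternatives were no filter, a filter at 100, median subtraction, quantile normalization, an intensity trend, array weights, 2 groups only, a replicate block and each array left out.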

Additional observations from a re-analysis of the deposited data

How the results depend on the processing

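With 2 arrays a group, the depth of these results is limited by the number of arrays, and for Lrrk2 and Pink1 also by signals near the minimum of 60. Over 16 alternatives, no gene of the set passed an adjusted p under 0.05 in limma except Lrrk2 without VTA KO replicate 2. There it entered the test only through the lone VTA KO array, the 1 array above the minimum, so this call is not support for a difference. Leaving out 1 array at a time gave 0 to 1 called genes between SNc and VTA over both genotypes, and 0 to 1 genes at the study's thresholds both between VTA KO and VTA WT (Sncg) and between SNc KO and VTA KO (Sncb), each 1 without VTA KO replicate 1. Median subtraction also gave 1 such gene between SNc KO and VTA KO, Sncb at 0.63. It moved the median of all probesets between SNc and VTA from 0.02 to 0.12. The sign of 3 small differences turned under another scaling. Between SNc KO and VTA KO, Vps35 read -0.042 after quantile normalization. Over both genotypes, SNc minus VTA was 0.034 for Sncg after median subtraction, and for Pink1 it was 0.088 after median subtraction and 0.087 after quantile normalization. The causes were not tested. Pink1 was not tested with the filter at 100.

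Leaving out arrays turned the sign of 19 of 56 differences, all of them at or under 0.17 with all arrays. The ranges were -0.071 to 0.41 for Sncg between SNc WT and VTA WT, and -0.075 to 0.18 for Vps35 between SNc KO and VTA KO. For SNc KO minus SNc WT they were -0.10 to 0.27 for Sncb, -0.25 to 0.24 for Sncg, -0.00015 to 0.016 for Pink1 and -0.25 to 0.10 for Vps35. For VTA KO minus VTA WT they were -0.039 to 0.26 for Park7, -0.15 to 0.17 for Uchl1, -0.014 to 0.24 for Vps35 and -0.14 to 0.28 for Lrrk2. For the difference between the knockout effects they were -0.094 to 0.20 for Park7, -0.070 to 0.24 for Uchl1, -0.18 to 0.013 for Atp13a2 and -0.083 to 0.33 for Lrrk2. For SNc minus VTA they were -0.19 to 0.075 for Sncg and -0.044 to 0.039 for Pink1, and for KO minus WT over both regions -0.15 to 0.036 for Sncb, -0.025 to 0.13 for Uchl1 and -0.069 to 0.11 for Vps35.

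The correlations of same-numbered arrays' deviations were 0.0058 to 0.098. Such low values show no clear pairing by replicate number, but they cannot exclude that arrays share animals or days. By the study's methods, midbrain blocks were divided into SNc and VTA, so both regions may come from the same brains. The tests of SNc against VTA take the arrays as independent. With a replicate block, 0 genes of the set were called in each comparison. Over all probesets, the block moved the calls between SNc WT and VTA WT from 97 to 12 higher and 59 lower, and those between SNc KO and SNc WT from 33 to 3 higher and 0 lower.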
